A study of Homo sapiens with 16 samples.

Results

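The genes described here are 10 members of the NRF2 antioxidant pathway, taken from the 44591 gene rows of the deposited tables by their symbols. They comprise 3 regulators (NFE2L2, which encodes NRF2, KEAP1 and MAFG) and 7 target genes (NQO1, SLC7A11, GCLC, GCLM, TXNRD1, SRXN1 and OSGIN1). Every member was found in both tables and passed the filter on low counts.

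RNA was sequenced from NCI-H1688, an established line of human small cell lung carcinoma, in 16 libraries that form 8 groups of biological duplicates. Each drug treatment lasted 24 h. The first deposited table holds control cells, sanguinarine chloride (1 µM), cepharanthine (3 µM) and evodiamine (3 µM), which are all plant alkaloids. The second holds the BET bromodomain inhibitor (+)-JQ-1 (28 µM, JQ1 below), the histone deacetylase inhibitor panobinostat (60 nM), and sanguinarine added to each of them at the same doses. Control cells carry the label untreated, whereas the treatment protocol names DMSO. Because the control stands only in the first table, a drug of the second table and the table itself cannot be told apart when the 2 are set against the control, and no drug of the second table is tested against it. Levels of the 10 members are compared within a table, and the interactions below set a change within one table against a change within the other. Groups follow the treatment labels. In the second table the libraries whose titles begin with S- are labelled as JQ1 or panobinostat alone, and if that prefix marked the combinations, every change on adding sanguinarine there would reverse. HMOX1, the heme oxygenase gene that NRF2 also drives, was at 226 and 189.5 CPM (counts scaled to library total, here with the TMM factor described below) with sanguinarine alone and at 1.55 and 1.83 CPM in the control. In the second table it was at 682 and 698 CPM in the libraries labelled sanguinarine with JQ1 against 10.6 and 9.99 CPM in those labelled JQ1, and at 175 and 186 CPM against 8.50 and 8.28 CPM for panobinostat.

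NRF2 is a transcription factor that KEAP1, the substrate adaptor of a CUL3 ubiquitin ligase, holds at a low level by marking it for degradation. Electrophiles and oxidants modify cysteines of KEAP1, after which NRF2 accumulates, pairs with a small MAF protein such as MAFG and binds antioxidant response elements near its targets. The targets supply cystine and glutathione, reduce thioredoxin and peroxiredoxins and detoxify quinones, and since NRF2 is controlled mainly as a protein, its mRNA need not follow its activity. KEAP1 and NFE2L2 are recurrently mutated in lung cancer.

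Counted reads per library ranged from 39996881 to 64060919, and protein-coding genes took 97.9% to 98.3% of them in the table with the control and 94.8% to 96.2% in the other. Of the markers of neuroendocrine small cell cancer, NEUROD1 and INSM1 were at or near 0 in every library, with at most 0.0427 RPKM (reads scaled to gene length and library total). Other neuroendocrine genes were higher in the second table, with SYP at 0.104 to 0.286 RPKM in the first and 2.21 to 14.5 in the second, NCAM1 at up to 0.028 and up to 11.4, and UCHL1 at 107 to 251 and 135 to 321 RPKM. The epithelial genes did not move together. EPCAM stood at 95.2 to 115 and 53.0 to 98.0 RPKM, with overlap. CDH1 was higher in the second table without overlap (55.7 to 75.0 against 105.5 to 179.6 RPKM). KRT8 (770 to 937 against 894 to 2299 RPKM) and KRT18 (883 to 1054 against 470 to 1218 RPKM) overlapped between tables. Of markers of other cell types, the collagen gene COL1A1 likewise differed between tables, with 2.72 to 4.32 RPKM against 6.15 to 18.9 RPKM, while COL3A1, PTPRC and PECAM1 were at most at 0.257, 0.0293 and 0.36 RPKM. The part of these differences in the results below was not tested. Of the 10 members, 8 overlap another gene by the positions given in the tables, and no source used here states whether counting used the strand. An antisense gene over NQO1 had no counts in the first table and up to 25.7 CPM in the second, where NQO1 itself was at 194 CPM or more. SLC7A11-AS1, on the strand opposite SLC7A11, reached 2.53 CPM in the first table and 12.4 CPM in the second. SLC7A11 itself was as low as 60.0 CPM by library total. An antisense gene over MAFG reached 1.15 and 7.66 CPM, with MAFG as low as 56.8 CPM. The part of such genes in the members' counts was not tested. Levels of a gene across libraries are given below as CPM scaled by the trimmed mean of M values (TMM). RNA was pooled over cells, so fewer cells of a type and less RNA per cell cannot be told apart.

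The letters that NRF2 with a small MAF protein binds were sought as TGACNNNGC, on either strand, in promoter windows of RefSeq (build GRCh38.p14) that run from 250 bases before to 50 bases after a transcription start. The table held 12 windows for 9 of the 10 members, all but SLC7A11. Matches were present in windows of KEAP1, GCLM and TXNRD1, that is in 2 of the 6 targets with a window. The same letters occurred in 13.3% of all 35116 windows and in 16.1% of the 27305 genes with a window. The 6 matches are shown because they let the regulator KEAP1 be set beside the targets GCLM and TXNRD1, whose levels follow. They are written 5′ to 3′ on the strand of the gene, with the 9 letters of the match in capitals and 10 bases on each side.
KEAP1, chr19:10502807-10502835, minus strand: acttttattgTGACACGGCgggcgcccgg
KEAP1, chr19:10502784-10502812, minus strand: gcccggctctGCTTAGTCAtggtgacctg
GCLM, chr1:93909446-93909474, minus strand: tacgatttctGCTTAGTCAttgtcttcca
TXNRD1, chr12:104215670-104215698, plus strand: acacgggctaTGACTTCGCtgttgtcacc
TXNRD1, chr12:104215761-104215789, plus strand: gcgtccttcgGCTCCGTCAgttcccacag
TXNRD1, chr12:104286920-104286948, plus strand: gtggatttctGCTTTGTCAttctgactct

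The GCLM match and the second KEAP1 match shared all 9 letters (GCTTAGTCA, on the other strand TGACTAAGC), which occurred in 36 of the 35116 windows, or 0.103%. The GCLM match began 34 bases before the RefSeq start, and the KEAP1 matches began 54 and 31 bases before the more downstream of the 2 KEAP1 starts in the table. The TXNRD1 matches began 99 and 8 bases before the first start and 102 bases before a later one. In GENCODE 44, the first TXNRD1 run overlaps no annotated feature, and the other 5 runs overlap an exon, in its untranslated part, of at least 1 transcript of the same gene. A match of letters is a description of these windows, not a site shown to be bound, and the absence of one says only that those letters are not in the window.

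In control cells the members differed widely in level per length. TXNRD1 was highest with a mean of 68.2 RPKM, followed by NQO1 with 59.7, KEAP1 with 42.3, SRXN1 with 27.5 and NFE2L2 with 25.2 RPKM. MAFG (13.1), GCLC (12.6) and GCLM (12.1) were close to each other, and SLC7A11 (9.69) and OSGIN1 (6.57) were lowest in RPKM. Of the control duplicates, those of OSGIN1 differed most, by a ratio of 0.774. GCLM had an SD of 0.912 RPKM and GCLC of 0.263 RPKM, so that the order of MAFG, GCLC and GCLM was within or near their spread.

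**Figure D1:**
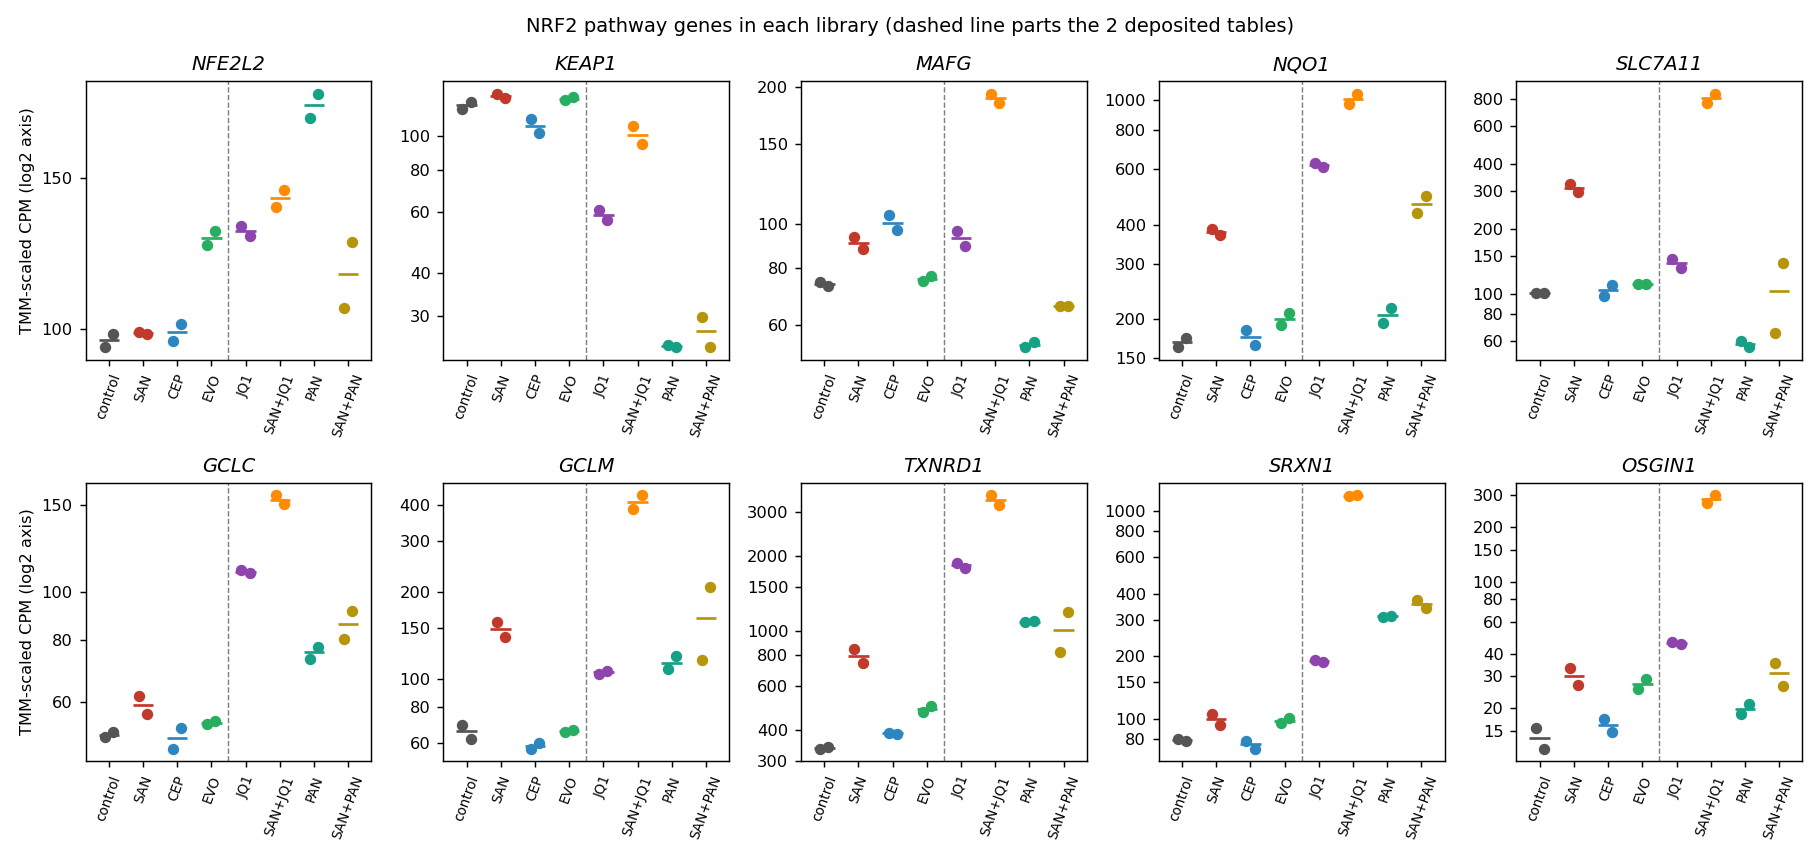
Level of each of the 10 genes in each of the 16 libraries, in TMM-scaled CPM on a log2 axis; points are libraries and bars are means of the 2 duplicates (SAN sanguinarine, CEP cepharanthine, EVO evodiamine, PAN panobinostat). Within the second table, sanguinarine with JQ1 gave the highest library of MAFG, NQO1, SLC7A11, GCLC, GCLM, TXNRD1, SRXN1 and OSGIN1, whereas NFE2L2 was highest with panobinostat alone. KEAP1 was lowest with panobinostat, alone or with sanguinarine (24.4 CPM in the second library of each).

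Sanguinarine alone raised 6 of the 7 targets, while the mRNA of NRF2 and of KEAP1 did not change detectably. SLC7A11 rose most, 3.08-fold, and TXNRD1, GCLM, NQO1 and OSGIN1 rose 2.35-, 2.26-, 2.25- and 2.21-fold. SRXN1 and the partner gene MAFG rose by smaller amounts. In all, 7 of the 10 members were higher and 3 did not pass (adjusted p under 0.05 in edgeR's quasi-likelihood test), against 22.0% of the 22263 genes tested that were called in either direction, 11.7% higher and 10.3% lower. The median log2 change was 0.73 over the members and 0.01 over all genes tested.

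NFE2L2 stood at 95.2 and 98.6 CPM in the control and at 99.1 and 98.5 with sanguinarine (log2 change 0.03 ± 0.09 SE, 95% interval -0.17 to 0.22, adjusted p = 0.893). The groups overlapped. KEAP1 was at 120.2 and 125.5 CPM in the control and at 133 and 129 with sanguinarine (log2 change 0.09 ± 0.10, adjusted p = 0.57). Here the treated libraries were both above the control, but the difference was within the model's error. MAFG, one of the small MAF genes, went from 74.6 and 73.1 CPM to 93.6 and 88.2 (log2 change 0.30 ± 0.09, adjusted p = 0.0185), with no overlap.

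NQO1, the quinone reductase, was at 163 and 174 CPM in the control and at 388 and 370 CPM with sanguinarine (log2 change 1.17 ± 0.10, adjusted p = 6.39e-08). SLC7A11, the cystine importer of the xCT transporter, was at 101 and 100.5 CPM in the control and at 323 and 296 CPM with sanguinarine (log2 change 1.62 ± 0.20, adjusted p = 8.21e-06). In both genes every treated library was well above every control library.

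The 2 subunits of glutamate-cysteine ligase, which makes the first and limiting step of glutathione synthesis, moved unequally. GCLM, the modifier subunit, went from 69.5 and 62.1 CPM to 158 and 139 CPM (log2 change 1.17 ± 0.17, adjusted p = 3.88e-05). GCLC, the catalytic subunit, went from 50.9 and 52.1 CPM to 61.8 and 56.6 CPM (log2 change 0.20 ± 0.10, 95% interval 0.00 to 0.40, adjusted p = 0.147). Groups did not overlap for either gene, and the change in GCLM passed the test while that in GCLC did not. GCLC did pass in a fit of the first table alone (0.23, adjusted p = 0.0106), of these 2 groups alone (0.20, adjusted p = 0.00379), without the libraries given sanguinarine with panobinostat (0.20, adjusted p = 0.0396), and with library totals as the scale (0.34, adjusted p = 0.0209).

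TXNRD1, the cytosolic thioredoxin reductase, rose from 336 and 340.2 CPM to 845 and 742 CPM (log2 change 1.23 ± 0.12, adjusted p = 4.71e-07). SRXN1, the sulfiredoxin that restores over-oxidised peroxiredoxins, rose from 80.4 and 78.9 CPM to 106 and 93.8 CPM (log2 change 0.32 ± 0.09, adjusted p = 0.0119). OSGIN1, an oxidative stress induced gene linked to growth inhibition, rose from 15.5 and 11.96 CPM to 33.3 and 27 CPM (log2 change 1.14 ± 0.15, adjusted p = 1.88e-05). None of these 3 pairs of groups overlapped. HMOX1 rose by 6.93 ± 0.14 on the log2 scale (adjusted p = 9.47e-18). The rises of NQO1, SLC7A11, GCLM, TXNRD1 and OSGIN1 held in each of 12 alternative settings, whereas those of MAFG and SRXN1 did not hold when either control library was left out (adjusted p = 0.125 and 0.157 for MAFG, 0.0918 and 0.118 for SRXN1). They also failed without the first sanguinarine library (adjusted p = 0.174 for MAFG and 0.194 for SRXN1), and MAFG failed without the second (0.0636) and with no filter on low counts (0.0732). The log2 change itself stayed between 0.26 and 0.34 for MAFG and between 0.24 and 0.33 for SRXN1 in these settings.

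**Figure D2:**
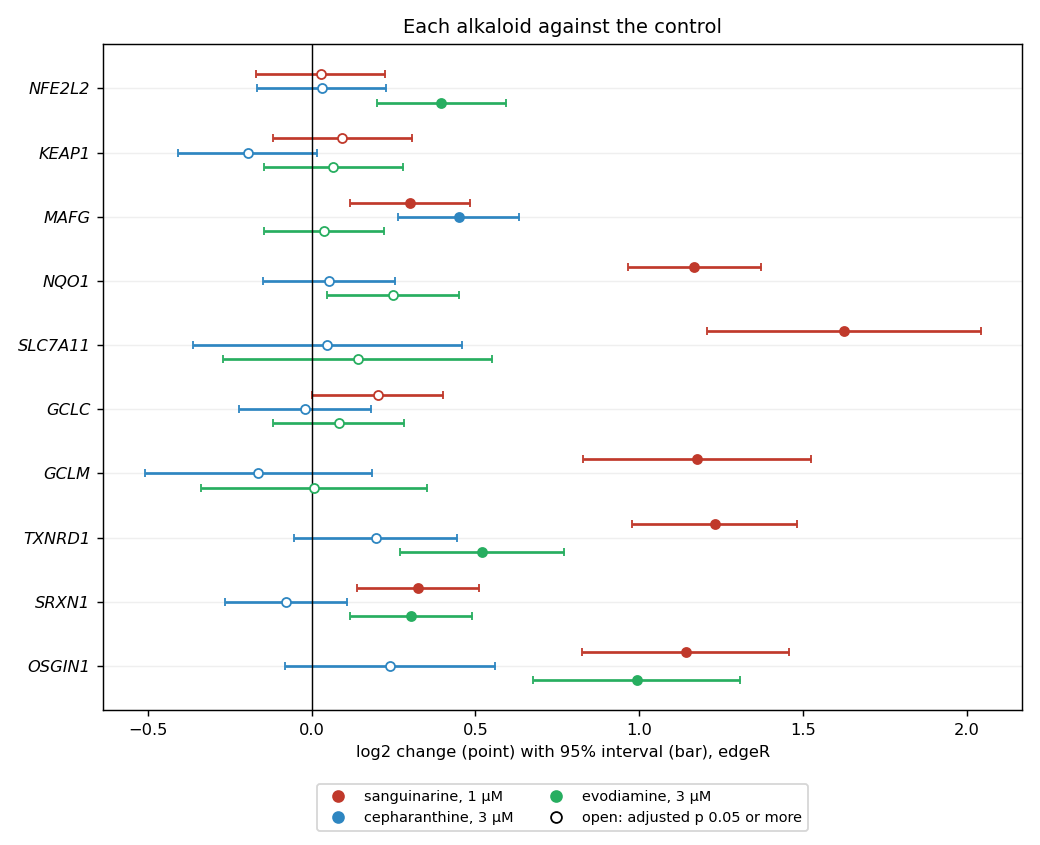
Log2 change of each gene with each alkaloid against the control, from edgeR over all 16 libraries; points are estimates, bars 95% intervals, and open points did not reach an adjusted p under 0.05. With sanguinarine SLC7A11 lies at 1.62 and NQO1, GCLM, TXNRD1 and OSGIN1 between 1.14 and 1.23, while with cepharanthine the one filled point is MAFG at 0.45.

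Cepharanthine changed 1 member, MAFG, and left the other 9 not passing, where 3.56% of all genes tested were called, 2.60% higher and 0.961% lower. MAFG was at 105 and 97.0 CPM, above both control libraries (log2 change 0.45 ± 0.09, adjusted p = 0.0038). TXNRD1 was at 388 and 387 CPM, both above the control, with a log2 change of 0.20 ± 0.12 that did not pass (adjusted p = 0.484), and NQO1 at 185 and 166 CPM overlapped the control (0.05 ± 0.10, adjusted p = 0.888). SLC7A11 at 97.8 and 110 CPM and NFE2L2 at 96.8 and 101 CPM overlapped their controls, and KEAP1 at 112 and 102 CPM lay below it (log2 change -0.20 ± 0.10, adjusted p = 0.389). GCLC (48.3 and 53.2 CPM) and OSGIN1 (17.5 and 14.8 CPM) overlapped the control, SRXN1 (78.8 and 72.2 CPM) and GCLM (57.4 and 60.1 CPM) lay just below it, and none of the 4 passed. In a fit of the first table alone TXNRD1 (0.20, adjusted p = 0.00839) and KEAP1 (-0.19, adjusted p = 0.0248) also passed. The change in MAFG was lost without either control library (adjusted p = 0.088 and 0.103) and without the first cepharanthine library (0.0981), at log2 changes of 0.45, 0.43 and 0.39. TXNRD1 passed in the fit of these 2 groups alone as well (0.20, adjusted p = 0.0161).

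Evodiamine raised 4 members, of which OSGIN1 rose most, 1.99-fold, beside NFE2L2 itself, TXNRD1 and SRXN1. The other 6 did not pass, and 11.4% of all genes tested were called, 5.30% higher and 6.13% lower. OSGIN1 stood at 25.5 and 28.9 CPM with evodiamine, above both control libraries (log2 change 0.99 ± 0.15, adjusted p = 0.000167). NFE2L2 stood at 125 and 129.9 CPM (0.40 ± 0.09, adjusted p = 0.00869), with no overlap with the control.

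TXNRD1 stood at 471 and 499.6 CPM (log2 change 0.52 ± 0.12, adjusted p = 0.00673) and SRXN1 at 95.7 and 101 CPM (0.30 ± 0.09, adjusted p = 0.0309), again with no overlap. NQO1 at 191 and 209.7 CPM was above both control libraries without passing (0.25 ± 0.10, adjusted p = 0.106), and passed in a fit of the first table alone (adjusted p = 0.000898), of these 2 groups alone (0.000213) and without the libraries given sanguinarine with panobinostat (0.0179). The genes of cystine and glutathione supply stayed near the control, with SLC7A11 at 110.5 and 111 CPM (0.14 ± 0.20, adjusted p = 0.725) and GCLM at 65.4 and 66.7 CPM (0.01 ± 0.17, adjusted p = 1). KEAP1 at 128 and 129.6 CPM, MAFG at 74.8 and 76.8 CPM and GCLC at 54.2 and 55.0 CPM did not pass either. OSGIN1 alone held in all 12 alternative settings, and NFE2L2, TXNRD1 and SRXN1 were each lost without the first control library (adjusted p = 0.12, 0.0698 and 0.174), without the second (0.0634, 0.0561 and 0.201) and without the second evodiamine library (0.0948, 0.0722 and 0.228). SRXN1 was lost without the first evodiamine library too (0.0956). In these settings the log2 change was between 0.37 and 0.42 for NFE2L2, 0.48 and 0.53 for TXNRD1 and 0.27 and 0.34 for SRXN1. SLC7A11 passed in the fit of these 2 groups alone (0.15, adjusted p = 0.0198).

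Set directly against each other, sanguinarine at 1 µM gave higher levels than cepharanthine at 3 µM for NQO1, SLC7A11, GCLM, TXNRD1, SRXN1 and OSGIN1, so that 6 members differed and 4 did not pass (14.7% of all genes called, 7.52% higher and 7.16% lower). The largest of these differences was that of SLC7A11 (log2 1.58 ± 0.20, adjusted p = 1.85e-05) and the smallest that of SRXN1 (0.40 ± 0.09, adjusted p = 0.0042). GCLM (1.34 ± 0.17), NQO1 (1.11 ± 0.10), TXNRD1 (1.03 ± 0.12) and OSGIN1 (0.90 ± 0.15) lay between. KEAP1 (0.29 ± 0.10, adjusted p = 0.0633), GCLC (0.22 ± 0.10, adjusted p = 0.132), MAFG (-0.15 ± 0.09, adjusted p = 0.286) and NFE2L2 (95% interval -0.20 to 0.19) did not pass. Of 12 alternative settings, KEAP1 passed in 6 and GCLC in 4. Sanguinarine at 1 µM against evodiamine at 3 µM differed for 6 members, 5 higher and 1 lower, with 4 not passing (20.5% of all genes called, 11.3% higher and 9.19% lower). NQO1 (0.92 ± 0.10), SLC7A11 (1.48 ± 0.20), GCLM (1.17 ± 0.17), TXNRD1 (0.71 ± 0.12) and MAFG (0.26 ± 0.09) were higher, and NFE2L2 was lower (-0.37 ± 0.09, adjusted p = 0.00812). SRXN1, OSGIN1, KEAP1 and GCLC did not pass between these 2 alkaloids, with 95% intervals of -0.16 to 0.21, -0.16 to 0.45, -0.19 to 0.24 and -0.08 to 0.32. The doses differ in both of these comparisons. The difference in SRXN1 between sanguinarine and cepharanthine was lost without the first sanguinarine library (0.32, adjusted p = 0.105) and without the second cepharanthine library (0.34, adjusted p = 0.0902). Against evodiamine, NFE2L2 was lost without either sanguinarine library (log2 -0.37 and -0.36) or the second evodiamine library (-0.34). MAFG was lost without any single one of the 4 libraries, at log2 values between 0.22 and 0.31. It was lost too with RLE, another scaling of the libraries (0.23, adjusted p = 0.0698), and with no filter on low counts (0.23, adjusted p = 0.197).

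Cepharanthine and evodiamine, both at 3 µM, differed for 4 members with 6 not passing (14.1% of all genes called, 8.28% higher and 5.79% lower). MAFG was higher with cepharanthine (log2 0.41 ± 0.09, adjusted p = 0.00306), and NFE2L2 (-0.36 ± 0.09, adjusted p = 0.0122), SRXN1 (-0.38 ± 0.09, adjusted p = 0.00601) and OSGIN1 (-0.75 ± 0.15, adjusted p = 0.00157) were lower. TXNRD1 (-0.33 ± 0.12, adjusted p = 0.0768), KEAP1 (-0.26 ± 0.10, adjusted p = 0.097), NQO1 (-0.20 ± 0.10, adjusted p = 0.199), GCLM (-0.17 ± 0.17), GCLC (-0.10 ± 0.10) and SLC7A11 (-0.09 ± 0.20) did not pass. Of 12 alternative settings, TXNRD1 and KEAP1 each passed in 6, NQO1 in 2 and GCLM in 1. NFE2L2 was lost without any single one of these 4 libraries (adjusted p between 0.0577 and 0.12), MAFG without the first cepharanthine (0.063) or first evodiamine library (0.0519), and SRXN1 without the second cepharanthine (0.106) or second evodiamine library (0.0862). Of all these direct comparisons, those that held in every alternative setting were NQO1, SLC7A11, GCLM and TXNRD1 for sanguinarine against each of the others, OSGIN1 for sanguinarine against cepharanthine, and OSGIN1 for cepharanthine against evodiamine.

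In the second table, the 2 epigenetic drugs given alone already set most members apart. JQ1 gave higher levels than panobinostat for KEAP1, MAFG, NQO1, SLC7A11, GCLC, TXNRD1 and OSGIN1 and lower ones for NFE2L2 and SRXN1, and GCLM did not pass, where 55.9% of all genes tested were called, 26.8% higher and 29.1% lower. NQO1 differed most, 3.01-fold, with 630.1 and 610.2 CPM under JQ1 against 194 and 218 CPM under panobinostat (log2 1.59 ± 0.10, adjusted p = 5.72e-11). KEAP1 was at 61.1 and 56.9 CPM under JQ1 and at 24.8 and 24.4 CPM under panobinostat (1.26 ± 0.11, adjusted p = 4.63e-09). NFE2L2 showed the opposite order, with 132 and 128 CPM under JQ1 and 176 and 188 CPM under panobinostat (-0.49 ± 0.09, adjusted p = 0.000177).

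SRXN1 was likewise higher under panobinostat, at 310.1 and 313 CPM against 191 and 188 CPM (log2 -0.72 ± 0.09, adjusted p = 8.18e-07). GCLM did not separate the drugs, at 104 and 107 CPM under JQ1 and 108 and 119.6 CPM under panobinostat (-0.11 ± 0.16, 95% interval -0.46 to 0.23, adjusted p = 0.575). The differences in SLC7A11 (1.24 ± 0.20), OSGIN1 (1.21 ± 0.15), MAFG (0.78 ± 0.09), TXNRD1 (0.75 ± 0.12) and GCLC (0.54 ± 0.10) all passed. All 9 differences held in every alternative setting.

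Sanguinarine added to JQ1 raised 9 of the 10 members above JQ1 alone, and NFE2L2 did not pass, against 30.0% of all genes called in either direction, 16.2% higher and 13.8% lower. SRXN1 and OSGIN1 rose 6.23-fold each, SLC7A11 5.84-fold and GCLM 3.89-fold, and KEAP1, MAFG, NQO1, GCLC and TXNRD1 rose between 1.40- and 2.03-fold. The median log2 change was 0.95 over the members and 0.02 over all genes tested. All 9 rises held in every alternative setting.

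SRXN1 rose from 191 and 188 CPM with JQ1 alone to 1176 and 1183 CPM with the combination (log2 change 2.64 ± 0.09, adjusted p = 1.74e-13). OSGIN1 rose from 46.6 and 45.4 CPM to 273 and 300.1 CPM (2.64 ± 0.15, adjusted p = 1.14e-10). The duplicates of each group lay far closer together than the groups in both genes.

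SLC7A11 rose from 145 and 131 CPM to 766 and 847 CPM (log2 change 2.55 ± 0.21, adjusted p = 1.64e-08). GCLM rose from 104 and 107 CPM to 387 and 431 CPM (1.96 ± 0.17, adjusted p = 4.1e-08), while GCLC rose from 111 and 109 CPM to 157 and 150.3 CPM (0.48 ± 0.09, adjusted p = 0.000623). Both ligase subunits were thus higher than with JQ1 alone, and no library of one group reached the other.

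TXNRD1 rose from 1874 and 1793 CPM to 3509 and 3219 CPM (log2 change 0.88 ± 0.12, adjusted p = 1.47e-05) and NQO1 from 630.1 and 610.2 CPM to 967 and 1044 CPM (0.70 ± 0.10, adjusted p = 1.64e-05). Among the regulators, KEAP1 rose from 61.1 and 56.9 CPM to 107 and 95 CPM (0.78 ± 0.10, adjusted p = 1.03e-05) and MAFG from 96.6 and 89.5 CPM to 193 and 184 CPM (1.02 ± 0.09, adjusted p = 4.29e-08). NFE2L2 stood at 132 and 128 CPM with JQ1 and at 139 and 145 CPM with the combination (0.13 ± 0.09, 95% interval -0.07 to 0.32, adjusted p = 0.335). Its 2 groups did not overlap, but the difference did not pass the test.

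Sanguinarine added to panobinostat raised 5 members (MAFG, NQO1, SLC7A11, GCLM and OSGIN1), lowered NFE2L2, and left KEAP1, GCLC, TXNRD1 and SRXN1 not passing, where 22.9% of all genes tested were called, 11.5% higher and 11.4% lower. By library totals without the TMM factor, the duplicates of this combination stood further apart than those of any other group. Their median ratio was 1.24 over the 10216 genes at 10 CPM or more, against 1.04 to 1.09 in the other groups. The part of scaling in these ratios was not tested. NQO1 rose from 194 and 218 CPM to 435 and 494 CPM (log2 change 1.17 ± 0.10, adjusted p = 1.2e-07). NFE2L2 fell from 176 and 188 CPM to 106 and 126 CPM (-0.65 ± 0.09, adjusted p = 7.63e-05). These 2 changes held in every alternative setting, also with either duplicate of the combination left out.

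SLC7A11 was at 60.2 and 56.5 CPM with panobinostat and at 65.4 and 139 CPM in the duplicates of the combination (log2 change 0.81 ± 0.20, adjusted p = 0.00591). GCLM was at 108 and 119.6 CPM and then at 117 and 207 CPM (0.51 ± 0.16, adjusted p = 0.0305), so that its groups overlapped. Both changes rest on the second duplicate, since without it the log2 changes were 0.16 for SLC7A11 (adjusted p = 0.208) and 0.03 for GCLM (adjusted p = 0.851). SLC7A11 was lost without the second panobinostat library as well (0.74, adjusted p = 0.0813), and GCLM without either of them (0.41 and 0.55, adjusted p = 0.197 and 0.109).

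TXNRD1 was at 1083 and 1093 CPM with panobinostat and at 826 and 1189 CPM with the combination, on either side of it (log2 change -0.11 ± 0.12, adjusted p = 0.547). Without the second duplicate TXNRD1 was lower (-0.40, adjusted p = 0.000339). OSGIN1 rose from 18.5 and 21.2 CPM to 35.7 and 26.6 CPM (0.65 ± 0.15, adjusted p = 0.00352) and MAFG from 53.8 and 55.0 CPM to 66.2 in both libraries (0.28 ± 0.09, adjusted p = 0.0255).

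SRXN1 was at 310.1 and 313 CPM with panobinostat and at 371 and 342 CPM with the combination (log2 change 0.20 ± 0.09, adjusted p = 0.116), and without the second duplicate it passed (0.25), as did KEAP1 (0.27). KEAP1 was at 29.8 and 24.4 CPM in the combination, overlapping panobinostat alone (0.14 ± 0.11, adjusted p = 0.373). GCLC was at 73.5 and 77.6 CPM and then at 80.4 and 91.7 CPM, without overlap and without passing (0.19 ± 0.09, adjusted p = 0.166), and passed without the first duplicate (0.28). The rise of OSGIN1 was lost without the first panobinostat library (adjusted p = 0.0587), and that of MAFG without either panobinostat library (0.172 and 0.167). In a fit of these 2 groups alone SLC7A11 (adjusted p = 0.0551), GCLM (0.191), OSGIN1 (0.0679) and MAFG (0.433) did not pass, in a fit of the second table alone GCLM (0.127) and MAFG (0.213) did not, and MAFG did not with no filter on low counts (0.147). With library totals as the scale SRXN1 (0.31) and GCLC (0.31) passed.

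**Figure D3:**
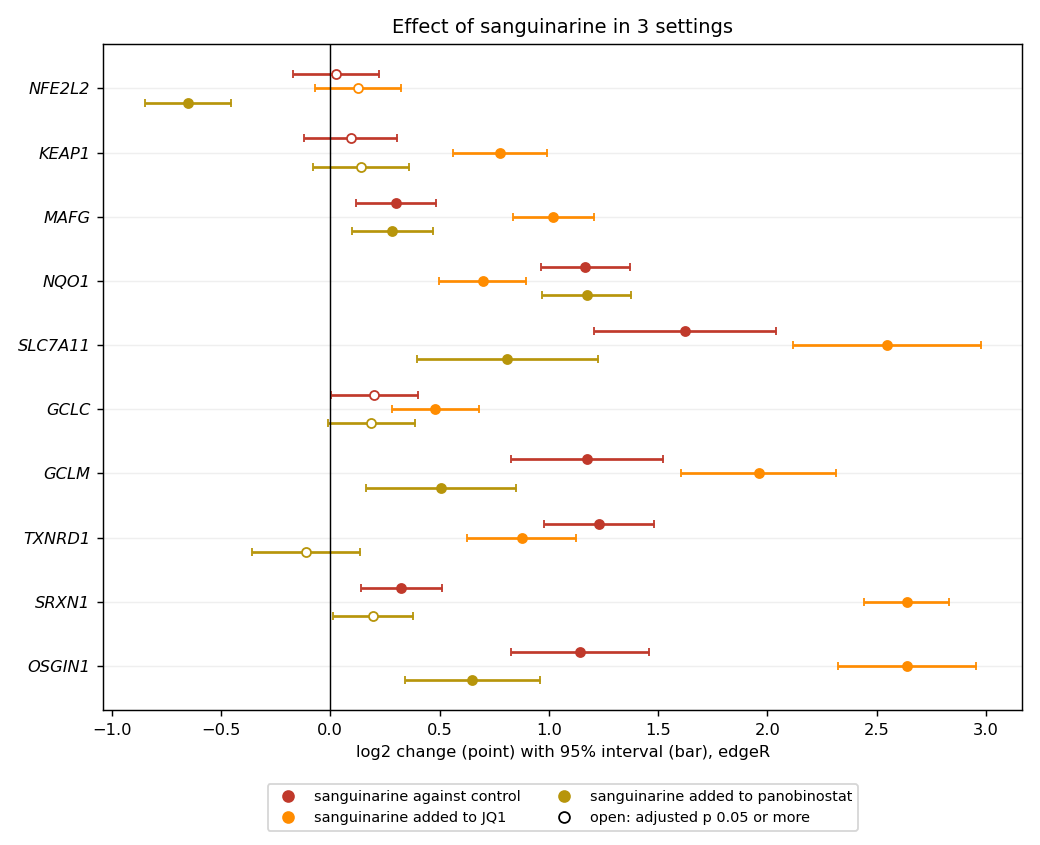
Log2 change of each gene when sanguinarine was given alone (against control), added to JQ1 (against JQ1) and added to panobinostat (against panobinostat), from edgeR; points are estimates, bars 95% intervals, and open points did not reach an adjusted p under 0.05. SRXN1 moves from 0.32 alone to 2.64 with JQ1, TXNRD1 from 1.23 alone to -0.11 with panobinostat, and NQO1 lies at 1.17 both alone and with panobinostat.

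Whether the effect of sanguinarine differed with a partner drug was tested as an interaction, that is, its log2 change on top of the partner less its log2 change over the control, so that an offset between tables that is additive on this scale drops out. With JQ1 the effect was larger for SRXN1 (log2 2.31 ± 0.13, adjusted p = 9.88e-10), OSGIN1 (1.498 ± 0.21, adjusted p = 4.77e-05), MAFG (0.72 ± 0.12, adjusted p = 0.000403) and KEAP1 (0.68 ± 0.14, adjusted p = 0.00245), in every alternative setting. It was also larger for SLC7A11 (0.92 ± 0.28, adjusted p = 0.0247) and GCLM (0.78 ± 0.23, adjusted p = 0.023) and smaller for NQO1 (-0.47 ± 0.14, adjusted p = 0.0199). SLC7A11 did not pass in the Wald test of DESeq2 (0.92, adjusted p = 0.0528), nor GCLM with library totals as the scale (0.73, adjusted p = 0.051). TXNRD1 (-0.35 ± 0.17, adjusted p = 0.159), GCLC (0.28 ± 0.13, adjusted p = 0.163) and NFE2L2 (0.10 ± 0.13, adjusted p = 0.67) did not pass. Of 15 alternative settings, TXNRD1 and GCLC each passed in 2. In all, 7 members differed and 3 did not pass, against 18.1% of all genes called, 9.83% higher and 8.25% lower.

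Those of NQO1, SLC7A11 and GCLM were each lost without the first control library (adjusted p = 0.119, 0.0559 and 0.0822). NQO1 was also lost without the first library of sanguinarine (0.0923), of JQ1 (0.091) or of their combination (0.09). SLC7A11 was lost without the second library of the control (0.0586), of sanguinarine (0.0848), of JQ1 (0.0949) or of the combination (0.0824). GCLM was lost without the second library of sanguinarine (0.0945) or of the combination (0.0824) and without either library of JQ1 (0.0567 and 0.0609).

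With panobinostat the interaction was negative for TXNRD1 (log2 -1.34 ± 0.17, adjusted p = 2.77e-05), whose change was 1.23 alone and -0.11 on panobinostat, and for NFE2L2 (-0.68 ± 0.13, adjusted p = 0.00162), whose change was 0.03 alone and -0.65 on panobinostat. The other 8 members did not pass, against 16.6% of all genes called, 7.91% higher and 8.65% lower. SLC7A11 (-0.81 ± 0.28, adjusted p = 0.0511) and GCLM (-0.67 ± 0.23, adjusted p = 0.0547) came close to the threshold. OSGIN1 (-0.49 ± 0.21), SRXN1 (-0.13 ± 0.12), KEAP1 (0.05 ± 0.15), MAFG (-0.02 ± 0.12) and GCLC (-0.01 ± 0.13) did not pass either. With no filter on low counts SLC7A11, GCLM and OSGIN1 passed (adjusted p = 1.66e-06, 0.000262 and 0.0369). SLC7A11 and GCLM also passed with a term for replicate number in the second table (0.0241 and 0.013), and GCLM in the Wald test of DESeq2 (0.0346). The interaction for NQO1 was 0.01 ± 0.14, with a 95% interval of -0.28 to 0.29. Leaving out the second duplicate of the combination moved the values of SLC7A11 and GCLM to -1.46 and -1.15, both of which passed, and leaving out the first moved those of SLC7A11 to -0.37 and OSGIN1 to -0.72, which passed too.

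Compared directly, sanguinarine with JQ1 gave higher levels than sanguinarine with panobinostat for all 10 members, where 52.9% of all genes were called, 25.4% higher and 27.5% lower. OSGIN1 differed most (log2 3.20 ± 0.15, adjusted p = 2.89e-12), with 273 and 300.1 CPM against 35.7 and 26.6 CPM, followed by SLC7A11 (2.98 ± 0.21, adjusted p = 5.24e-10) and KEAP1 (1.90 ± 0.11, adjusted p = 2.17e-11). NFE2L2 differed least (0.29 ± 0.09, adjusted p = 0.0128), and its difference was lost with library totals as the scale (0.09, adjusted p = 0.494), when the fit used only the second table (0.28, adjusted p = 0.0908) or only these 2 groups (0.29, adjusted p = 0.232), without the second library of sanguinarine with JQ1 (0.27, adjusted p = 0.0718) and without the first of sanguinarine with panobinostat (0.17, adjusted p = 0.0976). The other 9 held in every alternative setting.

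Per length within a library, the modifier subunit GCLM stood higher relative to the catalytic subunit GCLC in the 4 libraries with sanguinarine and no panobinostat than in their control or JQ1 libraries. The ratio of their RPKM values was 1.03 and 0.899 in control cells and 1.93 and 1.86 after sanguinarine, and it was 0.709 and 0.736 under JQ1 and 1.87 and 2.16 under both drugs. With panobinostat it was 1.11 and 1.16, and in the duplicates of its combination 1.09 and 1.71. Cepharanthine and evodiamine kept it between 0.852 and 0.917.

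The ratio of KEAP1 to NFE2L2, in RPKM, was 1.68 and 1.69 in the control and 1.78 and 1.74 with sanguinarine. Evodiamine gave 1.35 and 1.32, and cepharanthine 1.54 and 1.34. In the second table it was 0.615 and 0.589 with JQ1, 1.02 and 0.868 when sanguinarine was added, 0.187 and 0.172 with panobinostat, and 0.374 and 0.256 when sanguinarine was added to that. Both combinations thus had a higher ratio than their partner drug alone, in every library. These ratios are given as values, with no test.

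**Figure D4:**
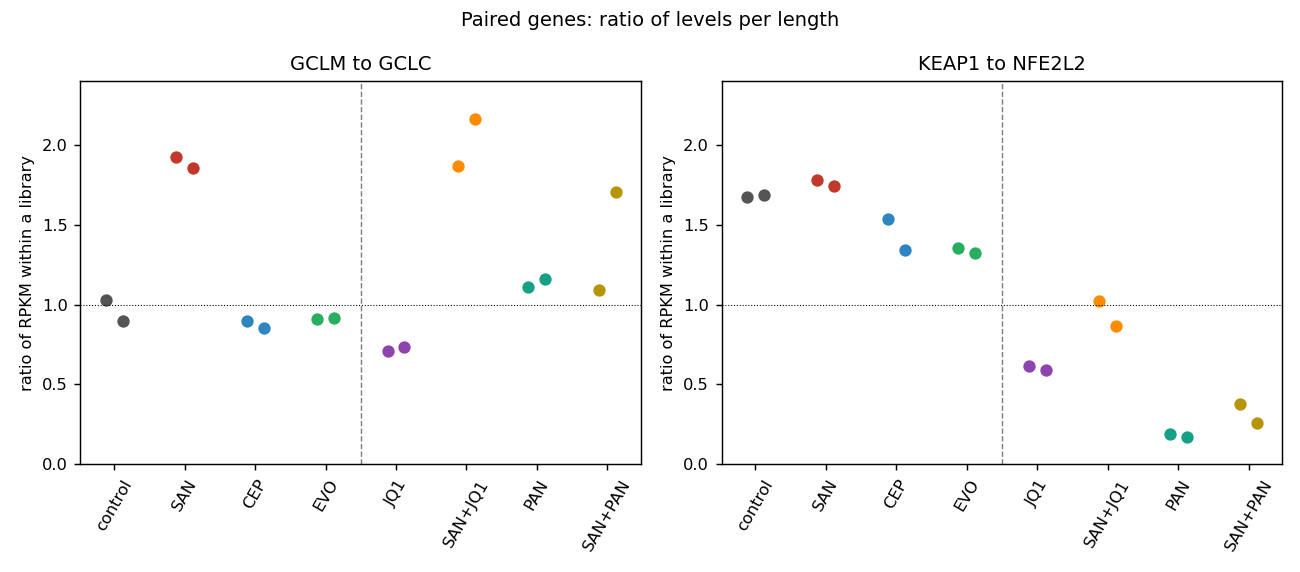
Ratio of GCLM to GCLC (left) and of KEAP1 to NFE2L2 (right) in each library, from RPKM values; each point is a library, the dashed line parts the deposited tables and the dotted line marks a ratio of 1. GCLM to GCLC reaches 1.93 and 1.86 with sanguinarine and 1.87 and 2.16 with sanguinarine and JQ1. Within the second table KEAP1 to NFE2L2 is lowest with panobinostat alone, at 0.187 and 0.172.

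Beyond the 10 members, 89 other genes of the pathway were followed in 5 lists, all of them measured and tested. With sanguinarine alone, 10 of 14 other NRF2 targets rose, 1 fell and 3 did not pass (median log2 change 0.59, against 0.01 over all genes). Of all genes tested, 11.7% were called higher and 10.3% lower in this comparison. PIR, an iron-binding nuclear protein, rose by 1.25 ± 0.19, ABHD4, a lipid hydrolase, by 1.13 ± 0.11 and BLVRB, a biliverdin reductase, by 0.98 ± 0.17, and CBR3, a carbonyl reductase, fell by 0.58 on the log2 scale. Of 8 genes that supply NADPH, 5 rose, 1 fell and 2 did not pass, among them PGD, an enzyme of the pentose phosphate pathway (0.57 ± 0.10), with the mitochondrial transhydrogenase NNT lower (-0.59 ± 0.10).

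Of 33 genes of glutathione synthesis and use, 11 rose with sanguinarine, 4 fell and 18 did not pass (median 0.12). The shares of all genes tested were 11.7% higher and 10.3% lower. CHAC1, which degrades glutathione, rose by 2.26 ± 0.16 and the exporter ABCC3 by 2.20 ± 0.14, while SLC3A2, the partner chain of SLC7A11 in the cystine transporter, fell by 0.59 on the log2 scale. GSTM2 rose by 4.01 with an error of 1.03, and its reads may be shared with the near-identical genes of its family. Of 19 genes of the thioredoxin and peroxiredoxin system, 6 rose, 3 fell and 10 did not pass (median -0.06), with SESN3, a sestrin, at 1.48 and the selenoprotein SELENOW at -1.05.

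Of 15 genes that control NRF2, 5 rose with sanguinarine, 3 fell and 7 did not pass (median -0.09), beside the same shares of 11.7% and 10.3% of all genes. SQSTM1, the autophagy receptor that binds KEAP1, rose most (log2 change 1.64 ± 0.10, adjusted p = 6.27e-10). The small MAF genes MAFK (0.47 ± 0.15) and MAFF (0.47 ± 0.11), the competing repressor BACH1 (0.40 ± 0.11) and the related factor NFE2L1 (0.27 ± 0.10) rose less, and CUL3, the ligase scaffold, did not pass (-0.24 ± 0.11, adjusted p = 0.141).

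With sanguinarine added to JQ1, 10 of the 14 other NRF2 targets rose, 1 fell and 3 did not pass (median log2 change 0.60), led by TRIM16L (2.95 ± 0.12), whose reads may be shared with its paralog TRIM16 (0.81). Over all genes tested 16.2% were called higher and 13.8% lower in this comparison. In the glutathione list 16 of 33 rose and 7 fell (median 0.22), with CHAC1 at 2.68 and GSTM3, a glutathione transferase, at 2.28, and in the thioredoxin list 3 of 19 rose and 8 fell (median -0.20), with SELENOW at -1.35. The 8 NADPH genes gave 3 rises and 1 fall (median 0.18), and the 15 controlling genes 6 rises and 4 falls (median -0.08). Among the latter were rises of SQSTM1 (1.45 ± 0.10), MAFF (0.93 ± 0.11), MAFK (0.75 ± 0.15), BACH1 (0.42 ± 0.11) and NFE2L1 (0.28 ± 0.10) and a fall of CUL3 (-0.36 ± 0.11).

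With sanguinarine added to panobinostat, 2 of the 14 other NRF2 targets fell and 12 did not pass (median log2 change -0.16, against 0.06 over all genes). HTATIP2 (-0.56) and SLC48A1 (-0.43) were the 2 that fell. In the glutathione list 4 of 33 rose and 9 fell, among them a rise of CHAC1 (2.08 ± 0.14), in the thioredoxin list 2 of 19 rose and 7 fell, led by the thioredoxin inhibitor TXNIP (-1.33), and the NADPH genes gave 1 rise and 3 falls. SQSTM1 rose (1.91 ± 0.10, adjusted p = 1.3e-10) as the one rise among the 15 controlling genes, and CUL3 (-0.35 ± 0.11) was among 3 falls. MAFK (0.35 ± 0.15), MAFF (0.30 ± 0.12), BACH1 (-0.22 ± 0.11) and NFE2L1 (0.08 ± 0.10) did not pass. Over all genes tested 11.5% were called higher and 11.4% lower. The interaction with panobinostat was negative for 9 of the 14 other targets, with 5 not passing (median -0.67, against -0.02 over all genes), and largest for PIR (-1.68) and ABHD4 (-1.27). Of all genes, 7.91% were called higher and 8.65% lower in it. The interaction with JQ1 was positive for 4 of these 14 and negative for 4, with 6 not passing. Its median was 0.04, against -0.01 over all genes, of which 9.83% were called higher and 8.25% lower.

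**Figure D5:**
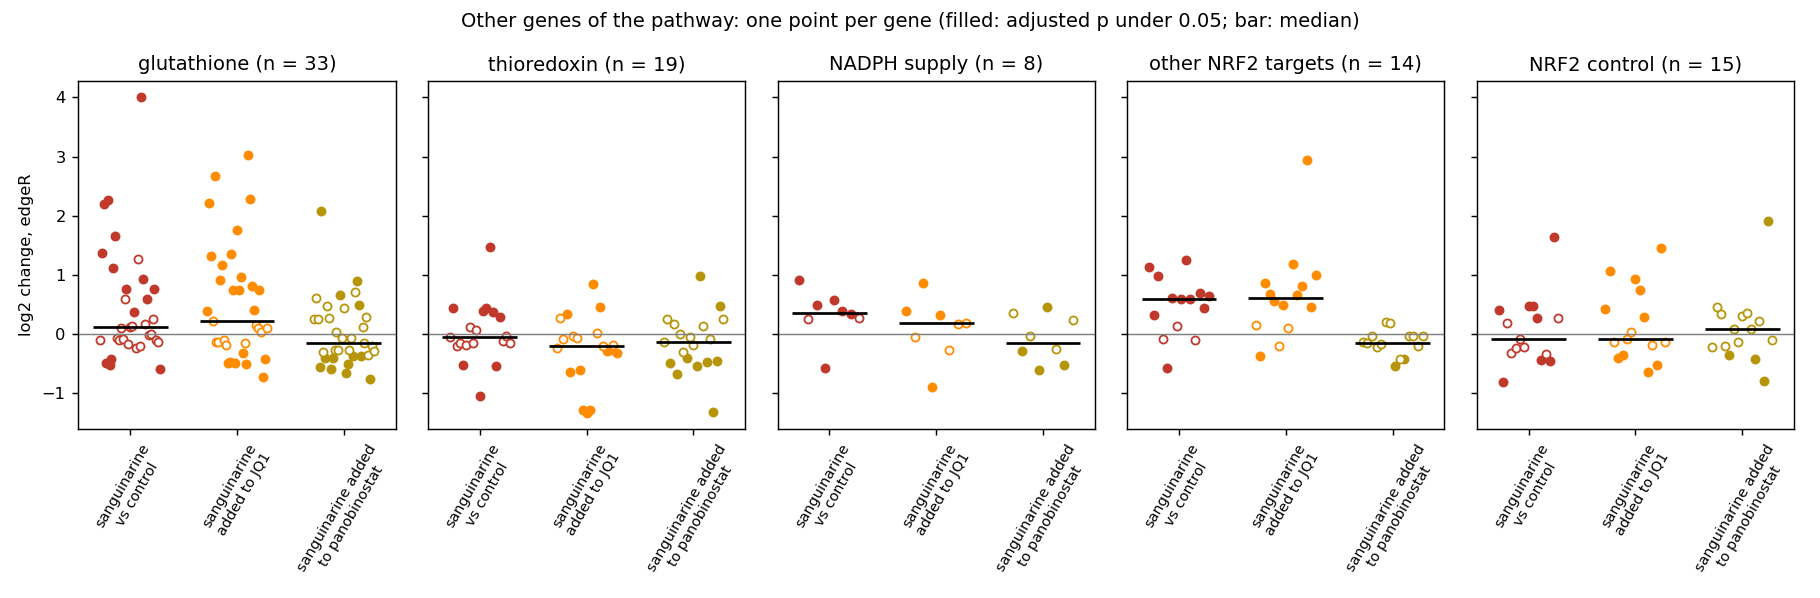
Log2 change of each gene of the 5 further lists when sanguinarine was given alone, added to JQ1 or added to panobinostat, from edgeR; each point is a gene, filled where the adjusted p was under 0.05, and bars are list medians. The median of the 14 other NRF2 targets is 0.59 with sanguinarine alone, 0.60 with JQ1 and -0.16 with panobinostat.

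With cepharanthine, where 2.60% of all genes tested were called higher and 0.961% lower, 3 of the 33 glutathione genes rose and 1 fell (median log2 change 0.02). In the thioredoxin list 1 of 19 rose and 1 fell (median -0.07), in the NADPH list 1 of 8 rose (0.02), and of the 14 other targets 1 rose and 2 fell (-0.07). Of the 15 controlling genes 3 rose and 1 fell (0.05). The 3 that rose were SQSTM1 (1.01 ± 0.10), BACH1 (0.66 ± 0.11) and MAFF (0.62 ± 0.11), and MAFK (0.31 ± 0.15), NFE2L1 (-0.10 ± 0.10) and CUL3 (-0.04 ± 0.11) did not pass.

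With evodiamine, where 5.30% of all genes tested were called higher and 6.13% lower, 3 of the 33 glutathione genes rose (median log2 change 0.11), 4 of the 19 thioredoxin genes rose and 1 fell (0.16), and 2 of the 14 other targets rose and 1 fell (0.11). The 8 NADPH genes had a median of -0.07, and the smallest adjusted p among them was 0.0589, for ME1. SESN3, a sestrin, was the largest rise of the thioredoxin list (2.01 ± 0.32). Of the 15 controlling genes 3 rose (0.11), among them SQSTM1 (0.64 ± 0.10) and BACH1 (0.34 ± 0.11), while MAFK (0.26 ± 0.15), CUL3 (0.20 ± 0.11), MAFF (0.11 ± 0.11) and NFE2L1 (-0.07 ± 0.10) did not pass.

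The genes whose changes were most like the median of the 7 targets were sought among 13555 genes by the Euclidean distance over 5 log2 changes (3 alkaloids against control and sanguinarine added to each partner drug). The nearest were NOC2LP1 (distance 0.44), PPP2R2C (0.45), CATSPER1 (0.47), LOC646708 (0.48) and TBKBP1 (0.50). Of the targets themselves GCLM was nearest to their median (0.32) and GCLC farthest (1.80). The comparisons behind this measure share control libraries, so the 5 values are not independent.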

How the data were processed

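RNA-seq of 16 NCI-H1688 libraries was analysed from 2 tables. The authors deposited raw counts, whole numbers of reads for each gene, and RPKM values, which per the file headers sit beside the counts and which the authors scaled to gene length and library total. Per the submitters' processing notes, STAR 2.5.1, GRCh38 and DESeq2 were used; what counted the reads, and whether by strand, is stated nowhere in those notes. Positions in the tables differ from GRCh38 and are not printed. Groups follow the treatment labels.

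Counts were fitted with edgeR 4.0.16 (R 4.3.3), quasi-likelihood, a term per group over all 16 libraries, TMM scaling and filterByExpr (minimum count 10), on the 22263 genes that passed. Benjamini-Hochberg adjustment ran over all of them within each of 12 comparisons, with a threshold of 0.05. Every adjusted p printed comes from this model or, where a setting is named, from its refit. The error (±) of a log2 change is its size divided by the square root of the F statistic, and it pools the spread of all groups. The steps were tested on simulated counts.

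The members and the lists were chosen with earlier results of these data known. All members are reported; of each list, at most the 3 largest called rises and the 3 largest falls, together with NFE2L1, BACH1, MAFF, MAFK, CUL3 and SQSTM1 where sanguinarine was added and for each alkaloid. HMOX1 was named for its bearing on the labels, after its values were seen. Alternatives covered scaling, filter, DESeq2 1.42.0, a replicate block, fewer groups in the fit, and each library left out in turn. The fit without the libraries of sanguinarine with panobinostat was chosen after seeing the data. A few genes of the marker and pathway lists are not reported here by name.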

Additional observations from a re-analysis of the deposited data

Results flagged for a closer look

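The effect of sanguinarine differed between cells without a partner drug and cells with JQ1 for 7 of the 10 genes. This is by the interaction term of the edgeR model, which called 18.1% of all genes tested. The differences, as log2 values, were 2.31 for SRXN1, 1.498 for OSGIN1, 0.92 for SLC7A11, 0.78 for GCLM, 0.72 for MAFG, 0.68 for KEAP1 and -0.47 for NQO1. The SRXN1 value is the largest of them: its log2 change was 0.32 with sanguinarine alone and 2.64 on JQ1. NQO1 went the other way, with a smaller rise on JQ1 (0.70) than alone (1.17). In the first table NQO1 went from 163 and 174 CPM in the control to 388 and 370 CPM with sanguinarine. In the second it went from 630.1 and 610.2 CPM with JQ1 to 967 and 1044 CPM with both drugs. Levels of NQO1 are not set against each other across tables, where the table and the drug cannot be told apart.

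With panobinostat the effect differed for 2 of the 10 genes, TXNRD1 (-1.34) and NFE2L2 (-0.68), where 16.6% of all genes tested were called. NFE2L2 did not pass with sanguinarine alone and fell when it was added to panobinostat. The duplicates of sanguinarine with panobinostat stood apart for TXNRD1 (826 and 1189 CPM) and less so for NFE2L2 (106 and 126 CPM), and both differences passed with either duplicate left out. Each of the 9 values compares a change in the second table with a change in the first, and a difference between the tables that does not add on the log2 scale would remain in it, which was not tested.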

How the results depend on the processing

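Of 1470 repeats of the 120 member results under alternative settings, 1338 stayed on their side of the threshold, 76 lost the call, 56 gained one and 0 were called in the opposite direction; 51 of the 71 called results held in every alternative. Of the 1338, 47, in 16 results, changed sign without passing in either setting (values -0.1041 to 0.1286). Beside the left-out libraries given below, some settings moved counts of called members by over 1.5 times. With only the same table in the fit they were 3 for cepharanthine and 8 for cepharanthine against evodiamine, and with only the groups compared 2, 7 and, for sanguinarine added to panobinostat, 2. The interaction with panobinostat gave 5 with no filter on low counts. Whether replicate numbers pair the samples was looked at only in the second table, and this does not settle it. Deviations of the first library from its group mean correlated between groups at -0.0439 to 0.1947. The highest was between panobinostat and its combination with sanguinarine. A replicate block in the second table moved the interaction with panobinostat to 4 members and moved no other count beyond 1.5 times.

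Leaving out each library in turn gave, of 10 members, 5 to 6 for sanguinarine against control, 0 to 1 for cepharanthine, 1 to 3 for evodiamine, 5 to 6 for sanguinarine against cepharanthine, 4 to 5 against evodiamine, 2 for cepharanthine against evodiamine, 9 for sanguinarine added to JQ1, 3 to 7 when added to panobinostat, 9 for JQ1 against panobinostat, 9 to 10 between the combinations, 4 to 6 for the interaction with JQ1 and 2 to 4 for that with panobinostat. Where edgeR called 0 for cepharanthine, 1 to 2 members had an unadjusted p under 0.05, and DESeq2 with all libraries called 1. A group left with 1 library is assumed to vary like the others.

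Library totals in place of TMM moved the median of all genes by over 0.1, to 0.15 for sanguinarine against control, 0.175 for sanguinarine added to panobinostat, -0.192 for JQ1 against panobinostat and -0.241 between the combinations. The share of called genes that were higher went from 53.2% to 75.7%, from 50.1% to 72.2% and from 48% to 34.8% in the first, second and last, and from 46.4% to 57.6% for evodiamine, 51.2% to 74.6% and 55.2% to 70.3% for sanguinarine against cepharanthine and evodiamine, and 54% to 66.3% for sanguinarine added to JQ1. Counts of called genes over all 22263, with the range when a library was left out and the range in other settings, were 4895 (2602 to 2744, 4988 to 8752) for sanguinarine, 793 (337 to 434, 763 to 3133) for cepharanthine, 2546 (1065 to 1250, 2478 to 6122) for evodiamine, 3267 (1329 to 1936, 3234 to 6548) and 4563 (2174 to 2565, 4531 to 8436) for sanguinarine against these, and 3131 (1460 to 1685, 3050 to 6268) between these. They were 6681 (4464 to 5093, 5001 to 8567) for sanguinarine added to JQ1, 5107 (2088 to 7739, 1936 to 5761) for sanguinarine added to panobinostat, and 4025 (2618 to 3443, 3921 to 6520) and 3686 (2084 to 6263, 2187 to 4457) for the interactions with JQ1 and with panobinostat. Mean levels per length moved by more than 1 SD of the duplicates for 45 of 80 when TMM-scaled. Read depth is ample for the members, whose lowest level was 11.96 CPM, and the 2 libraries per group limit the precision.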
